A study of Mus musculus with 2 samples.

Results

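The cells described here are stromal cells of the adult mouse vomeronasal organ (VNO) that carried transcripts of decorin (Dcn) and of the alpha-2 chain of type I collagen (Col1a2). Cells were chosen by their UMI counts: a cell was taken as a fibroblast when it held at least 5 UMIs of Dcn and at least 3 of Col1a2, none of the smooth muscle myosin Myh11 or of the endothelial adhesion molecule Pecam1, and at most 2 in all of the macrophage complement genes C1qa, C1qb and C1qc. A UMI is a molecular tag that lets the copies of 1 captured mRNA be counted once. Of 24084 deposited barcodes, 10591 cells had 200 to 9000 genes and at most 5% mitochondrial UMIs, and 405 of them met the rule. Both samples were whole VNO of wild-type C57BL/6J male mice at postnatal day 60, without treatment and without a contrasting genotype. The tissue was dissociated with papain and collagenase, frozen as a cell suspension, thawed and captured as 1 droplet library per sample. The labels name 5 organs and do not say how they were divided, so each library may pool animals and the p-values measure only the spread between these 2 libraries, which may be technical. Library 1 gave 220 fibroblasts, or 3.86% of its 5694 kept cells (exact 95% binomial interval 3.38% to 4.40%), and library 2 gave 185, or 3.78% of 4897 (3.26% to 4.35%). These intervals, which cover counting error only, overlapped. Of barcode sequences, 33 occurred in both libraries, with 0 of them in a fibroblast.

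Fibroblasts make and remodel the connective tissue around epithelia, vessels, glands and nerves. They secrete collagen chains that assemble into fibrils, small leucine-rich proteoglycans such as decorin and lumican that coat and space those fibrils, elastic fibre proteins, and soluble factors that act on neighbouring cells. In the VNO the connective tissue lies under the sensory and non-sensory epithelium, between the glands and around a large vein, inside a capsule of bone and cartilage, and much of the mesenchyme of the face comes from the cranial neural crest.

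The counts that chose the cells are given as a description. A fibroblast held 5 to 679 UMIs of Dcn (median 120) and 3 to 266 of Col1a2 (median 24), out of 671 to 33895 UMIs in all (median 7674). Summed over the cells of a library, Dcn stood at 17195 and 16235 CPM, which is UMIs per 1000000 UMIs of the summed cells, and Col1a2 at 3294 and 3429 CPM, with the values of library 1 and library 2 in that order here and below. UMIs count the 3′ ends of molecules and were not scaled by gene length, so the order of genes given below is an order of captured molecules. At the edge of the rule, 5 members had exactly 5 UMIs of Dcn and 6 had exactly 3 of Col1a2, and just outside it 5 cells had 4 UMIs of Dcn and 11 had 2 of Col1a2 while meeting the rest. The 33 members with 5 to 9 UMIs of Dcn held Lum at 2795 and 1540 CPM, against 406 and 897 CPM in the 39 cells with 2 to 4 UMIs of Dcn. Lum is the gene of lumican. The limit on Myh11 removed 56 cells that met the rest, 35 and 21 by library, and these cells held Lum at 2613 and 2186 CPM, Pdgfra at 373 and 313 CPM and no UMI of the pericyte gene Rgs5. They also held the smooth muscle actin Acta2 at 7620 and 6463 CPM, against 2824 and 2440 CPM in the members. The limits on C1q and Pecam1 removed 26 and 6 cells on their own, and the mitochondrial limit kept out 236 cells with 5% to 10%.

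The name of fibroblast was checked against markers that the rule did not use. Lum was found in 99.3% of the 405 cells, the lipocalin Apod in 91.6%, the receptor Pdgfra in 76.3%, Col1a1 in 98.5% and Col3a1 in 99.0%. In endothelial cells, a class that should lack them and had a median of 7147 UMIs per cell, the shares in the same order were 1.10%, 1.38%, 0.551%, 0.275% and 4.96%. Thinned to 4484 UMIs per cell, which kept 364 fibroblasts and 290 endothelial cells, Lum was found in 98.4% and 0.345% of them. Without Dcn and Col1a2, the other 7 genes of the fibroblast marker list summed to 14899.7 and 18008 CPM in the fibroblasts and to 33.5 and 35.2 CPM in the endothelial cells. Each of the 5 markers was far more frequent in the fibroblasts than in the endothelial cells.

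Markers of other cell types were counted in the same cells. Genes that the rule or the gates limit were left out of the next sums. The 8 other endothelial genes summed to 81.4 and 87.6 CPM (6504 and 6209.8 CPM in endothelial cells), with Tek at 0 UMIs, and the 6 other macrophage genes to 42.8 and 49.9 CPM (6862 and 6548 CPM in macrophages), with Adgre1 at 0. The 7 epithelial genes summed to 445 and 561 CPM, the 8 neuronal genes to 803 and 781 CPM, the 9 glial genes to 47.0 and 145 CPM and the 8 genes of other leukocytes to 13.6 and 5.75 CPM. The 5 adipocyte genes summed to 118 and 128 CPM, against 13.3 and 17.4 CPM in all other kept cells. Nearly all of this was the lipase Lpl (115 and 123 CPM), while Adipoq, Plin1 and Fabp4 were at 0 UMIs. The 5 dividing-cell genes summed to 28.2 and 11.5 CPM. The 10 other mural genes were the exception, at 6679 and 6345 CPM (9668 and 10601 CPM in the mural cells described below), mostly Acta2 and Tagln, while Rgs5 was at 0 UMIs. Of the 6 gland genes, which summed to 4872 and 830 CPM, the secreted Obp2a was in 88.6% of fibroblasts, in 91.7% of endothelial cells and in 91.5% of Omp-positive neurons, at a median of 3 UMIs in each of these groups. The part of other cell types in the results below was not tested, except where a fit without the affected cells is given.

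Over 8298 genes at 10 CPM or more, the summed fibroblasts of the 2 libraries differed by a median of 0.19 on the log2 scale without sign. The gland genes Obp2a (3201 and 602 CPM) and Lcn3 (1153 and 161 CPM), the bone and matrix gene Spp1 (1025 and 139 CPM) and the chemokine Ccl2 (56.4 and 211 CPM) lay far from this median. Each was chosen after its values were seen. Obp2a, Lcn3 and Spp1 were higher in library 1 and Ccl2 in library 2, and their levels in fibroblasts are given here by library only.

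**Figure D1:**
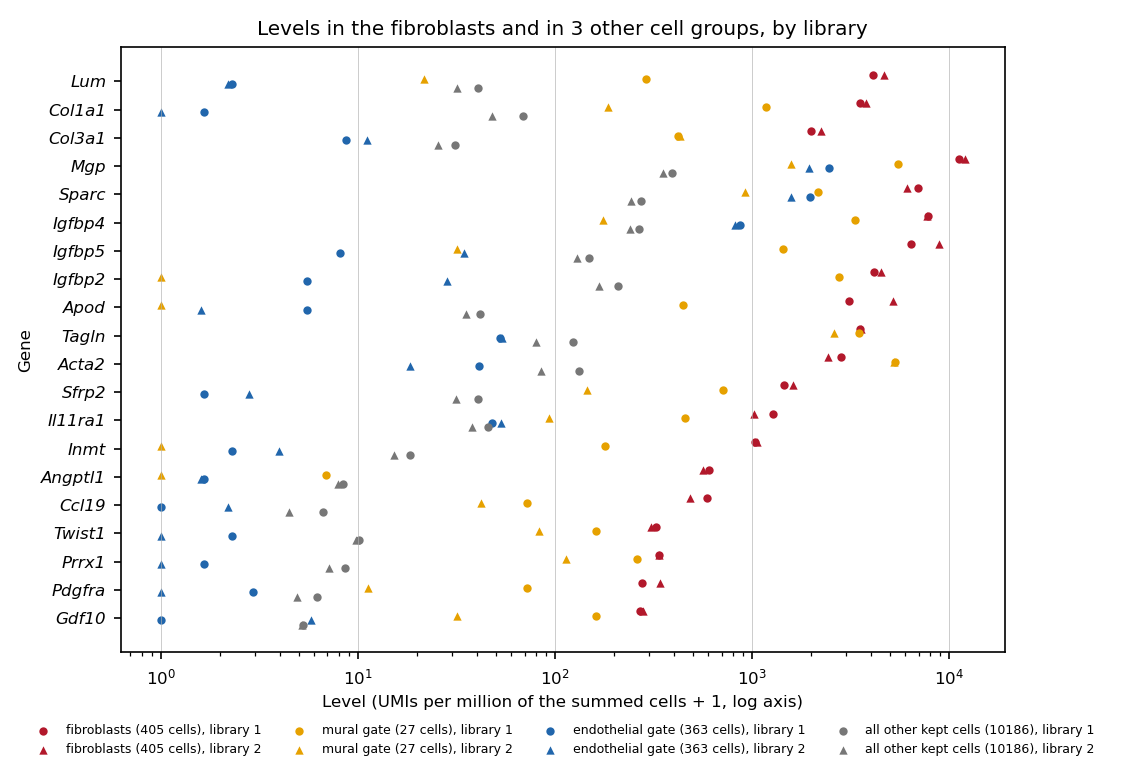
Levels of 20 genes (rows) in CPM plus 1 on a log axis, in the fibroblasts, the mural gate, the endothelial gate and all other kept cells, with a circle for library 1 and a triangle for library 2. The red fibroblast points lie to the right of the blue and grey points for all the genes shown, at 4128 and 4688 for Lum, while the yellow points of the 27 mural cells lie far apart between libraries for most genes and reach past the fibroblasts for Acta2.

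The fibroblasts were compared with 363 endothelial cells (185 and 178), which held at least 2 UMIs of Pecam1 and 1 of Cdh5, at most 4 of Dcn, none of Myh11 and at most 2 of C1q, and with all 10186 other kept cells. These others include the cells with Dcn and Col1a2 that the limits on Myh11, Pecam1 and C1q removed. The gates were set on the same cells, so the tests describe what goes along with the gates, and the gate genes were left out of them. Against endothelial cells, 13067 genes were tested on summed UMIs with edgeR and Benjamini-Hochberg adjustment, and fibroblasts had the higher level for 2598 (19.9%) and the lower for 2211 (16.9%) at an adjusted p under 0.05, at a median log2 difference of 0.03 over all of them. DESeq2 called 2981 genes in place of 4809. Against all other cells, 18407 genes were tested, 3213 (17.5%) were higher and 4342 (23.6%) lower, and the median was -0.27. The counts and medians of the gene lists below are to be read against these values. Where a list held genes at 0 UMIs in endothelial cells, its median is also given with those genes at the bound that 3 counts allow.

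Fibrillar collagens, the chains of the load-bearing fibrils, made up 0.632% and 0.700% of all UMIs of the fibroblasts and 0.0131% and 0.00997% of those of all other cells, without Col1a2, which the rule used. All 10 members tested were higher in fibroblasts in both comparisons, with a median log2 difference of 4.83 against all others and of 7.32 against endothelial cells (5.22 with bounds). Col1a1, the partner chain of Col1a2 in type I collagen, stood at 3509 and 3803 CPM, against 67.4 and 47.1 CPM in all others (log2 difference 6.01 ± 0.22 SE, adjusted p = 7.8e-07) and 1 UMI in all endothelial cells. Its ratio to the endothelial cells was 11764, with a counting interval of 2111 to 464683. Col3a1, the chain of type III collagen, stood at 1987 and 2248 CPM against 29.96 and 24.5 CPM (log2 difference 6.30). Neither gene's groups overlapped, which describes genes already called and is no further test. Col5a2 (322 and 394 CPM) and Col5a1 (231 and 245 CPM), chains of the type V collagen that sits in the core of fibrils, were both called higher as well. Col2a1, the collagen of cartilage, was low at 15.7 and 24.9 CPM and was present in 2.47% of the cells.

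A CCAAT element lies in the RefSeq promoter of Col1a2, shown here because Col1a2 defines the cells. The stretch is chr6:4505464-4505528 of GRCm38.p6, plus strand, with the element in capitals, 109 bases before the start site.
Col1a2: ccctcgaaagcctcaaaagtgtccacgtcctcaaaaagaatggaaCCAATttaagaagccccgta
The letters CCAAT or, on the other strand, ATTGG occurred 2 times in this promoter of 250 bases before and 50 after the start, and at least once in 37.4% of all 32851 such promoters.

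Other collagens were called higher for 17 of 18 genes against endothelial cells and 18 of 19 against all others, at medians of 5.38 (4.79 with bounds) and 4.50. The highest were Col18a1 (783 and 840 CPM, 33.9 and 30.2 CPM in all others), a basement membrane collagen, Col4a1 (555 and 612 CPM) and Col6a1 (556 and 598 CPM), a chain of the beaded filaments of type VI collagen. Col6a1 had no UMI in endothelial cells and was at least 619-fold higher in fibroblasts. Col4a1, which endothelial cells also make for their basement membrane, stood at 247 and 178 CPM there and was higher in fibroblasts by 1.46 on the log2 scale. Col13a1, a transmembrane collagen, was the 1 gene lower in fibroblasts than in endothelial cells (8.35 and 7.67 against 15.5 and 19.1 CPM), a call that was lost in 5 of the 14 alternatives, among them leaving out the fibroblast sum or the endothelial sum of library 2.

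Small leucine-rich proteoglycans took 0.776% and 0.806% of the UMIs without Dcn, which the rule used, against 0.0142% and 0.0125% in all others. Of 10 members tested, 10 were higher than in all others and 9 than in endothelial cells, at medians of 5.62 and 9.25 (6.02 with bounds). Lum stood at 4128 and 4688 CPM against 39.7 and 30.7 CPM (log2 difference 6.98 ± 0.20 SE, adjusted p = 3.6e-07). Bgn, biglycan, stood at 2159 and 2045 CPM against 60.8 and 63.2 CPM, and Ogn, osteoglycin, at 653 and 598 CPM against 15.4 and 10.0 CPM. The values of the 2 libraries lay close together for these genes and far from those of the other cells. Ecm2 was the 1 member lower than in endothelial cells (34.4 and 30.7 against 61.8 and 57.2 CPM), a call that DESeq2 did not make.

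Of the elastic fibre, fibronectin and matricellular genes, 27 of 29 were higher and 1 lower than in all others, and 23 of 28 were higher and 2 lower than in endothelial cells, at medians of 4.24 and 4.20. Mgp, matrix Gla protein, an inhibitor of calcification, stood at 11194 and 11983 CPM against 390 and 353 CPM in all others and 2463 and 1938 CPM in endothelial cells, and was found in each of the 405 cells. Sparc, a collagen-binding matricellular protein, stood at 6931 and 6128 CPM against 270 and 241 CPM. Mfap4 (1876 and 1376 CPM), Mfap5 (603 and 595 CPM), Fn1 (601 and 626 CPM) and Eln (520 and 506 CPM), genes of microfibrils, fibronectin and elastin, were all called higher in both comparisons. Sparcl1, a relative of Sparc, and Ltbp4, which binds latent TGF-beta, were lower than in endothelial cells, by -1.64 and -1.03 on the log2 scale. Tnc, tenascin C, was the 1 gene lower than in all others, at 1.57 and 1.28 CPM, and its call was lost in 8 of the 14 alternatives, among them leaving out any 1 of the 4 sums and the replicate block (adjusted p = 0.052).

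Genes of collagen processing, crosslinking and turnover were called higher than in all others for 22 of 23 and than in endothelial cells for 20 of 23, at medians of 4.04 and 3.83 (2.77 with bounds). Timp2, a metalloproteinase inhibitor, stood at 997 and 1101 CPM against 117 and 114 CPM in all others, Serpinh1, the collagen chaperone, at 978 and 977 against 53.9 and 53.3 CPM, and Ctsk, a collagen-cleaving cathepsin, at 916 and 898 against 15.7 and 10.5 CPM. These levels were almost equal in the 2 libraries. Timp3 (log2 difference -0.43), Adamts1 (-1.64) and Plod1 (-1.19) were lower than in endothelial cells, and the call of Timp3 was lost in 8 of the 14 alternatives, among them leaving out either fibroblast sum or the endothelial sum of library 2.

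The IGF-binding proteins, secreted carriers of insulin-like growth factors, took 2.47% and 2.72% of the UMIs against 0.105% and 0.0958% in all others, and 5 of the 6 were higher in both comparisons, at medians of 4.74 against all others and 4.26 against endothelial cells. Igfbp4 stood at 7826 and 7736 CPM, Igfbp5 at 6400 and 8859 CPM, Igfbp7 at 5784 and 5496 CPM and Igfbp2 at 4178 and 4530 CPM. Igfbp7 was also high in endothelial cells (4632 and 3892 CPM) and differed from them by 0.41 on the log2 scale, a call lost in 4 of the 14 alternatives, among them leaving out either fibroblast sum or the endothelial sum of library 2, while Igfbp2 and Igfbp5 stood there at 4.51 and 27.4 and at 7.08 and 33.4 CPM. Igfbp3 was the member lower in both comparisons, at 10.96 and 3.84 CPM. The growth factors themselves were lower in level than their carriers, with Igf2 at 303 and 405 CPM and Igf1 at 121 and 137 CPM.

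Growth factors and morphogens were higher than in all others for 25 of 37 genes and lower for 8, at a median of 2.91. Angptl1, an angiopoietin-like secreted protein, stood at 604 and 560 CPM against 7.39 and 6.89 CPM (log2 difference 6.37), and Gdf10, a BMP relative, at 269 and 279 CPM against 4.28 and 4.17 CPM (6.04). Wnt5a, a Wnt ligand, stood at 161 and 206 CPM and Rspo1, which strengthens Wnt signals, at 107 and 100 CPM. The fibroblasts were higher than all other cells in each of these 4 genes in both libraries. Against endothelial cells 24 of 36 were higher and 4 lower, at a median of 3.00, the latter being Bmp4 (-1.26), Bmp6 (-3.12), Tgfb1 (-1.60) and Kitl (-1.66).

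Secreted antagonists of BMP and Wnt were higher than in all others for 16 of 18 genes and than in endothelial cells for 15 of 16, at medians of 3.50 and 5.57 (4.59 with bounds). Sfrp2, which binds Wnt ligands, stood at 1452 and 1618 CPM against 39.6 and 30.3 CPM (log2 difference 5.47), Nbl1 at 851 and 835 CPM against 106 and 85.5 CPM and Sfrp1 at 674 and 611 CPM against 129 and 107 CPM. Fst, follistatin, which binds activins, stood at 470 and 493 CPM against 29.4 and 31.6 CPM. Noggin (Nog) and sclerostin (Sost) were at most 1 UMI per library, and Sost was at 0 UMIs in the 405 cells, which allows up to 0.862 CPM (3 counts).

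Chemokines and cytokines were higher than in all others for 10 of 17 genes, at a median of 1.62. Ccl19, which draws cells that carry the receptor CCR7, stood at 589 and 481 CPM against 5.64 and 3.48 CPM (log2 difference 6.89) and was found in 66.7% of fibroblasts against 0.551% of endothelial cells. Ccl11, eotaxin, stood at 314 and 433 CPM against 7.41 and 2.34 CPM (6.24) and had no UMI in endothelial cells, so it was at least 396-fold higher in fibroblasts. Cxcl12, which guides leukocytes and stem cells, stood at 387 and 350 CPM and was not called against endothelial cells (387 and 364 CPM). The complement genes, which opsonise and lyse targets or restrain that attack, were higher than in all others for 9 of 10, at a median of 3.95, led by the C1 inhibitor Serping1 (1296 and 1147 CPM against 44.8 and 31.3 CPM) and by C4b (337 and 327 against 19.0 and 20.1 CPM). Clusterin (Clu) and Cd55, which restrain complement, were lower than in endothelial cells by -1.27 and -3.36 on the log2 scale.

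Retinoid genes were higher than in all others for 11 of 14, at a median of 2.19. Crabp1, which binds retinoic acid, stood at 912 and 789 CPM against 232 and 173 CPM, and Rbp4, the retinol carrier of blood, at 224 and 179 CPM against 1.53 and 2.37 CPM. Of the growth factor receptors, 15 of 20 were higher than in all others, at a median of 1.64, led by Il11ra1, the interleukin 11 receptor (1280 and 1021 CPM against 44.8 and 36.9 CPM), Pdgfra (277 and 339 against 5.17 and 3.89 CPM) and Pdgfrb (222 and 243 against 4.56 and 4.40 CPM). Against endothelial cells 11 receptors were higher and 6 lower, with Il6st, the shared interleukin 6 receptor subunit, at -1.91. Guidance cues were called in both directions, 12 higher and 4 lower of 20 against all others at a median of 1.18, and Notch pathway genes likewise, 3 higher and 7 lower of 15 at a median of -1.24 (-1.12 with bounds). The Notch target Hes1 stood at 320 and 494 CPM against 311 and 353 CPM and was not called (it was without the fibroblast sum of library 1, and with the replicate block at an adjusted p of 0.030), and the ligand Dll4 was at 0 UMIs in fibroblasts.

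Transcription factors of mesenchyme were higher than in all others for 25 of 35 and lower for 4, at a median of 3.47. Id3, an inhibitor of basic helix-loop-helix factors, stood at 1369 and 1566 CPM against 311 and 352 CPM. Prrx2 (400 and 336 CPM), Prrx1 (337 and 335 CPM against 7.59 and 6.13 CPM, log2 difference 5.63) and Twist1 (323 and 306 CPM against 9.10 and 8.72 CPM, 5.16) are factors of cranial mesenchyme. Msx1 (181 and 164 CPM) and Alx1 (76.7 and 56.3 CPM), also known from the development of the face, were higher in both comparisons. Ebf1 stood at 318 and 378 CPM in fibroblasts and 380 and 417 CPM in all other cells and was not called. Dlx5, Dlx6, Ebf2 and Msx2 were lower than in all others. All 39 Hox genes in the files, the patterning genes of the trunk and limbs, had 0 UMIs in the 405 cells, which allows up to 0.862 CPM for each, while Hoxd8 stood at 10.3 and 19.7 CPM in endothelial cells. Over all other kept cells Hoxd8 stood at only 0.853 CPM, and 0 of the 6 Hox genes tested against them were called.

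Subtype lists from other organs were split. Of the adventitial list, Ly6a (1279 and 1134 CPM) and Cd248 (124 and 128 CPM) were higher and Dpp4, with 0 UMIs, was lower than in all others. Of the parenchymal list, the methyltransferase Inmt (1039 and 1053 CPM against 17.4 and 14.3 CPM), Col15a1 (503 and 511 CPM) and Cxcl12 were higher. Of the nerve sheath list, Angptl7 (455 and 738 CPM) and Osr2 (190 and 162 CPM) were higher, and Slc2a1, Itgb4 and Itga6, which perineurial cells use, were lower. The counts were 6 higher and 4 lower of 11, 7 and 2 of 9, and 6 and 5 of 11, at medians of 1.54, 2.64 and 1.63. Against endothelial cells 5 of 10 adventitial genes were higher and 4 lower, at a median of 0.66. The adventitial list took 0.178% and 0.164% of the UMIs of fibroblasts and 0.269% and 0.225% in endothelial cells. The parenchymal and nerve sheath lists took larger shares in fibroblasts than in endothelial cells. Of the tendon, cartilage and bone list 9 of 11 were higher than in all others, at a median of 3.37 and with no gene above 57.5 CPM. A few cells carried much of this list, which summed to 4037 and 6415 CPM in the 9 cells of subcluster 7 and 711 and 254 CPM in subcluster 4, against at most 123 CPM in the other subclusters, described below. Early-response genes, which tissue dissociation can raise, took 2.75% and 2.77% of the UMIs of fibroblasts against 2.37% and 2.53% in all others and 2.89% and 3.27% in endothelial cells, with Fos at 4986 and 4371 CPM. Their part in the levels was not tested.

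The genes with the largest changes by rule were these. Against endothelial cells, those higher were Col1a1, Angptl7, Col6a1, the cadherin Cdh11, Ccl11, the proteoglycan Aspn, Lum, the receptor Pdgfrb, the laminin Lama2 and the hedgehog inhibitor Hhip. Those lower were endothelial genes such as Tie1 and Tek, both receptors of the angiopoietin pathway, and Adgrl4, Gimap6, Myct1, Cyyr1, Ccl21a, Gimap1, Edn1 and Fam167b. Adgrl4 was at 0 UMIs in fibroblasts and at 359 and 313 CPM in endothelial cells, at least 389-fold lower. Against all others, those higher were the hyaluronan synthase Has1, the hedgehog target Gli1, Pi15, the pentraxin Ptx3, Nat8f3, Sfrp4, Ostn, C1qtnf3, the proteoglycan Epyc and Lum. Gli1 stood at 11.5 and 11.5 CPM against 0.0216 and 0.0763 CPM and Has1 at 23.0 and 30.04 against 0.108 and 0.102 CPM. Those lower were at 0 UMIs in fibroblasts and belong to neurons (Vmn1r51, Vmn1r230, Vmn1r47, Vmn1r225, Vmn1r69 and Vmn2r36, all vomeronasal receptors), macrophages and other leukocytes (Adgre1, Gpr65) or endothelium (Adgrl4, Gimap6). Not all vomeronasal receptors were at 0 UMIs. Vmn1r198 held 0 and 155 UMIs and Vmn1r39 held 148 and 1, each in 2 fibroblasts.

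**Figure D2:**
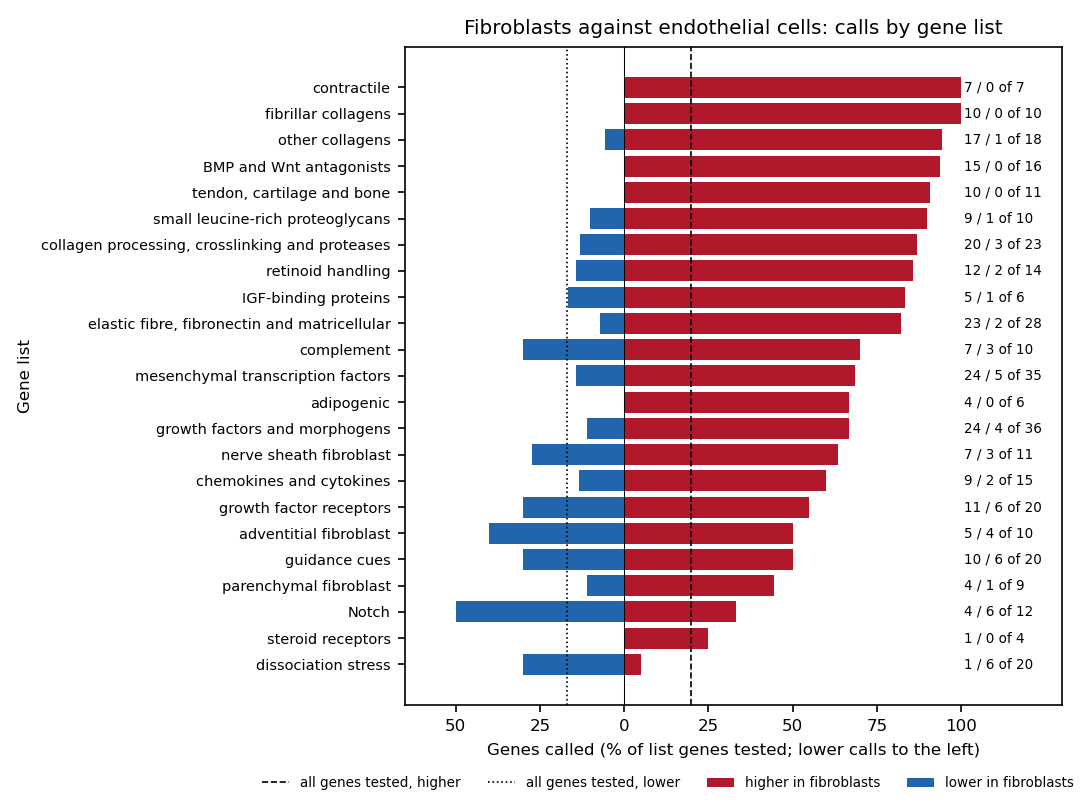
Share of the tested genes of each list (rows) that edgeR called higher (red, to the right) or lower (blue, to the left) in fibroblasts than in endothelial cells, with the counts at the right and dashed and dotted lines at 19.9% and 16.9%, the shares over the whole table. Collagens, BMP and Wnt antagonists and contractile genes reach far past the dashed line, with 10 of 10 fibrillar collagens higher, while the Notch list and the early-response list lean to the left.

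Mural cells, the smooth muscle cells and pericytes of vessels, are like fibroblasts mesenchymal, and few passed the gate of at least 2 UMIs of Myh11, at most 4 of Dcn and the same limits on Pecam1 and C1q. The gate held 27 cells, 18 and 9, with 169220 and 97346 UMIs, and the 6 gland genes took up 164927 and 66680 CPM of them, against 4872 and 830 CPM in fibroblasts. Epcam was found in 48.1% of the 27 cells, against 19.8% of fibroblasts and 13.2% of endothelial cells. The 7 epithelial genes summed to 1649 and 1264 CPM in the gate, against 445 and 561 CPM in fibroblasts. Prrx1 was found in 55.6% and Twist1 in 51.9% of the 27 cells (87.2% and 81.2% of fibroblasts). The gate was thus not shown to hold mural cells alone, and the part of gland and epithelial RNA in the results was not tested. Fibroblasts had the higher level for 193 (1.62%) of 11916 genes tested and the lower for 189 (1.59%), at a median of 0.30, and DESeq2 called 128 higher and 247 lower. The count of 382 became 595 (359 higher and 236 lower) with the library as a replicate block. It rose without the mural sum of library 1 and fell without that of library 2. Without the 31 members of subclusters 6 and 7, described below, it became 705. It became 3560 with a mitochondrial limit of 10%, which brought the gate to 268 cells.

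The matrix lists leaned to the fibroblasts here too. Small leucine-rich proteoglycans were higher for 5 of 10, elastic and matricellular genes for 8 of 27 with 1 lower, complement genes for 5 of 10 and fibrillar collagens for 3 of 10, at medians of 2.52, 1.90, 1.65 and 2.18 (2.20, 1.79, 1.48 and 1.50 with bounds). Mesenchymal transcription factors were higher for 1 of 34, growth factors for 3 of 34 and BMP and Wnt antagonists for 1 of 16. Retinoid genes were higher for 1 of 14, growth factor receptors for 1 of 20 and guidance cues for 0 of 18. In these lists 0 genes were lower, and medians with bounds ran from 0.68 to 1.66. Over all genes tested 1.62% were higher. With 27 cells in the gate, a gene not called may still differ. Dpt, dermatopontin, a collagen-binding matrix protein, stood at 381 and 405 CPM and had no UMI in the mural gate, so it was at least 34.8-fold higher. Other genes at 0 UMIs in the gate among the largest changes were Rbp4 (at least 18.1-fold), Fibin, the monooxygenase Fmo2, Clec3b (tetranectin), Pi16, Cxcl5, C3, the adrenomedullin receptor Calcrl and Crispld1 (at least 6.92-fold). Those lower were the mural genes Rgs5, Actg2, Pln (phospholamban) and Ppp1r14a, and the gland products Ltf, Pip, Lcn3, Wfdc18, Scgb1c1 and Dmbt1. Rgs5 stood at 425 and 1705 CPM in the mural gate and at 0 UMIs in fibroblasts. Of these 20 genes 12 lost their call without the mural sum of library 2, which held 9 cells.

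Contractile genes build the actin and myosin apparatus of smooth muscle. They took 1.01% and 0.921% of the UMIs of fibroblasts, 1.64% and 1.48% of those of the mural gate and 0.0692% and 0.0531% of those of all others. Against all others 7 of 10 were higher, and against endothelial cells 7 of 7, at medians of 3.62 and 5.87. Tagln, transgelin, stood at 3540 and 3565 CPM in fibroblasts, 3481 and 2599 CPM in the mural gate and 51.5 and 53.0 CPM in endothelial cells, and fibroblasts and mural cells differed by 0.07 on the log2 scale (adjusted p = 0.96). Acta2 stood at 2824 and 2440 CPM in fibroblasts and at 5313 and 5260 CPM in the mural gate, a log2 difference of -1.15 that was not called (adjusted p = 0.068) and was called in 10 of the 14 alternatives, among them the replicate block (adjusted p = 0.032). For Acta2 both mural sums lay above both fibroblast sums, and for Tagln the fibroblast sums lay above the mural sums, by a small margin in library 1. Myl9 (-1.63), Cnn1 (-2.34), Lmod1 (-1.46) and Actg2, at 0 UMIs in fibroblasts, were called lower, 4 of the 8 tested, at a median of -1.30 over the list. The rule held Myh11 at 0 UMIs in fibroblasts and the mural gate asked for at least 2, so these differences go along with the gates. Without the mural sum of library 2 the calls of Myl9, Cnn1 and Lmod1 were lost, that of Myl9 also without the fibroblast sum of library 2, and that of Lmod1 without any 1 of the 4 sums and in thinned cells. With the mitochondrial limit of 10% the differences were -2.24 for Acta2 (adjusted p = 1.4e-06), -2.79 for Myl9 and -0.18 for Tagln (adjusted p = 0.30).

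Myl9 carries in its promoter a CArG box, the motif of serum response factor, and the stretch is shown as the 1 match among the contractile genes with a promoter entry. The stretch is chr2:156775258-156775327 of GRCm38.p6, plus strand, with the motif in capitals, 161 bases before the start site.
Myl9: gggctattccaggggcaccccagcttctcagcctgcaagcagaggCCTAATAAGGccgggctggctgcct
Of the 10 contractile genes 7 had a RefSeq promoter entry and 1 held the motif on either strand, as did 1.63% of all 32851 promoters of the same length. Genes without an entry and bases outside this length were not searched, so a motif there would not be counted.

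Among the 405 cells, the contractile genes were uneven. Acta2 was found in 63.5% of fibroblasts (57.1% thinned) against 17.1% of endothelial cells (13.8% thinned), with quartiles of 0, 3 and 35 UMIs and up to 183 in 1 cell. Tagln was found in 78.0% against 16.5%, and Igfbp2 in 59.5% against 4.68%. Across the 405 cells, scaled to their totals, Acta2 followed Tagln (Spearman rho 0.84) and Igfbp2 (0.69), and ran against Dcn (-0.50; -0.52 and -0.48 within the libraries), while Igfbp2 ran against Dcn as well (-0.42) and Dcn followed Lum (0.60). These values describe cells that share 2 libraries and a total per cell, and the rule set a floor on Dcn, so they carry no p. The rule also kept out cells with Myh11. The 56 cells removed by that limit alone held Acta2 at 7620 and 6463 CPM and Dcn at 8110 and 9916 CPM. The part of this limit in the values was not tested.

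**Figure D3:**
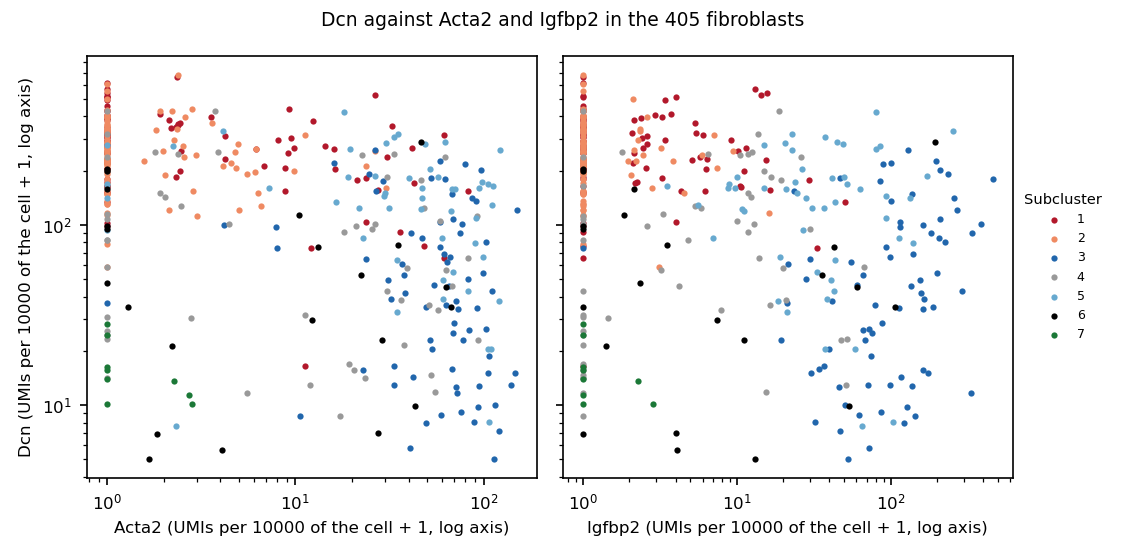
Each point is 1 of the 405 fibroblasts, with Dcn on the vertical axis and Acta2 (left) or Igfbp2 (right) on the horizontal axis, all in UMIs per 10000 of the cell plus 1 on log axes, coloured by subcluster. Cells of subclusters 1 and 2 lie at high Dcn with Acta2 and Igfbp2 at or near 0, and the cells highest in Acta2 belong to subclusters 3 and 5, at a rho of -0.50 between Dcn and Acta2.

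Clustering of the 405 cells alone gave 7 subclusters, described here by their leading genes and without a test, since the same cells and genes made them. No subcluster was given a cell type name. Each of the 7 held cells of both libraries, in similar shares except for the first pair. Subcluster 1 had 100 cells (63 and 37), led by the endopeptidase Phex, osteocrin (Ostn), the natriuretic peptide convertase Corin, Ccl8 and Dpep1. It held Dcn at 30377 and 27659.5 CPM, Dpep1 at 2181 and 2360 CPM, Ccl19 at 1371 and 1016 CPM and Acta2 at 606 and 851 CPM. Subcluster 2 had 93 cells (40 and 53), led by Fabp7, Meox2, Sostdc1, Cldn1 and the glypican Gpc3, and held Apod at 9772 and 11383 CPM and Igfbp5 at 11683 and 13057 CPM, with Acta2 at 217 and 227 CPM. Its leading gene Fabp7 was found in 5 of all 405 fibroblasts and came from library 2 (3.62 and 232 CPM). Both were the high-Dcn, low-Acta2 end of the population.

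Subcluster 3 had 74 cells (40 and 34), led, after a vomeronasal receptor found in 3 of all 405 fibroblasts, by the protease Pappa2, which cleaves IGF-binding proteins, the natriuretic peptide receptor Npr3, the laminin Lama1 and Egfl6. It held Acta2 at 7186 and 5413 CPM, Tagln at 8588 and 8649 CPM and Igfbp2 at 13771 and 14338 CPM, and Dcn was low at 6131 and 8283 CPM. The fetal growth factor Igf2 stood there at 1115 and 1192 CPM, Crabp1 at 2100 and 1745 CPM and Cyp26b1, which degrades retinoic acid, at 334 and 287 CPM, while Mfap5 was low (14.2 and 5.42 CPM) and Pi16 was at 0 UMIs. Early-response genes summed to 9179 and 12016 CPM there, against 32510 and 27336 CPM in subcluster 1, and what part this had in the grouping was not tested. Subcluster 5 had 52 cells (28 and 24), led by Fst (2044 and 2617 CPM), the leptin receptor Lepr, Crym, Lrrc15 and Lgr5, and was high in contractile genes as well, with Acta2 at 5198 and 5562 CPM and Igfbp2 at 6538 and 5134 CPM, beside Angptl1 at 1617 and 2250 CPM and Eln at 913 and 1910 CPM. Summed over the list, contractile genes stood at 23876 and 20738 CPM in subcluster 3 and 16994 and 17960 CPM in subcluster 5, against 3267 and 3817 CPM in subcluster 1 and 2143 and 1607 CPM in subcluster 2. Contractile genes were kept in the clustering that made the subclusters, so these sums describe the grouping and do not test it. The order of these 4 subclusters was the same in both libraries and no pair overlapped. Fibrillar collagens, Col1a2 included, did not follow it, at 11101 and 11854, 10843 and 11023, 9572 and 10679, and 10977 and 12269 CPM in the same order of subclusters.

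The other subclusters were mixed or carried genes of other tissues. Subcluster 4 had 55 cells (32 and 23), led by Bglap, Spp1 and Ibsp of bone, the MHC class II gene H2-Aa and the cell cycle gene Top2a, and its Spp1 came from library 1 (6208 and 35.5 CPM). Subcluster 6 had 22 cells (12 and 10) with a median of 17021.5 UMIs and 6 of the 9 members called doublets, led by the epithelial Ly6d, Krt14 and Aqp5, and it held Obp2a at 20051 and 389 CPM. Vomeronasal receptors of neurons were among its leading genes too. Over both libraries Vmn1r198 stood at 376 CPM and Vmn1r39 at 361.5 CPM, against 0.326 CPM each in the other members. Subcluster 7 had 9 cells (5 and 4), led by the cartilage genes Ucma, Col2a1, Cytl1, Cnmd and Acan, with Dcn at 1550 and 1321 CPM. The cells of subclusters 6 and 7, 31 in all, met the rule but carried these genes, and the counts of genes called were also computed without them. The 55 cells of subcluster 4 stayed in those counts.

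**Figure D4:**
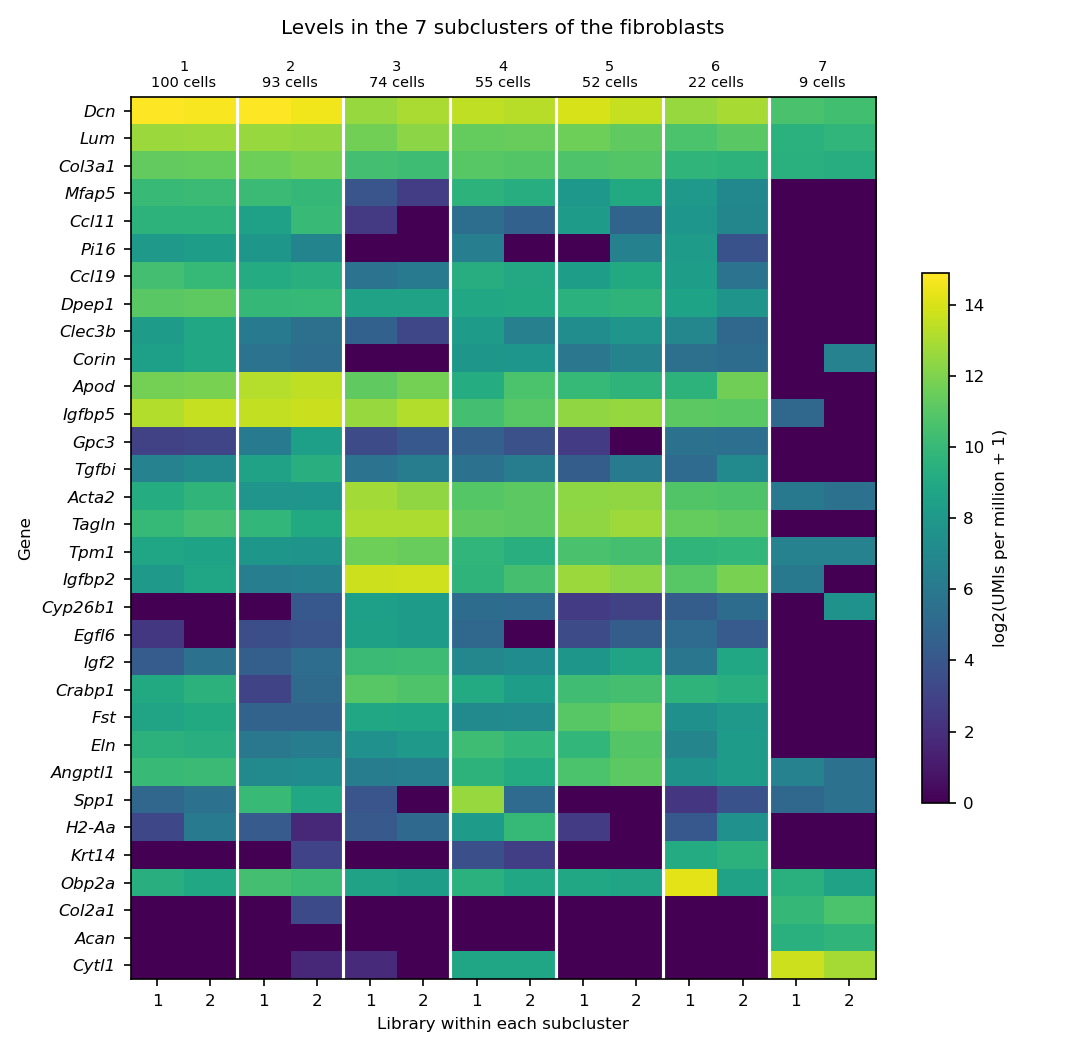
Levels of 32 genes (rows) in the 7 subclusters (column pairs, left library 1 and right library 2), as log2 of CPM plus 1. Dcn and Mfap5 are brighter in subclusters 1 and 2 than in 3 and 5, Acta2, Tagln, Tpm1 and Igfbp2 in subclusters 3 and 5, Krt14 in subcluster 6, where Obp2a is bright in library 1, and Col2a1, Acan and Cytl1 in subcluster 7.

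Pi16, a peptidase inhibitor that marks adventitial fibroblasts in other organs, was used to divide the cells by a gene outside the rule. It was found in 79 cells, 48 and 31, or 19.5% of fibroblasts against 0.826% of endothelial cells. Positive cells had medians of 8338.5 and 7842 UMIs and negative cells 7529 and 7536.5 UMIs, and a cell with 0 UMIs may still express the gene. Positive cells lay in subclusters 1 (24 and 11) and 2 (15 and 17) for the most part, and in none of 3 or 7. With edgeR, Pi16-positive cells had the higher level for 34 (0.291%) of 11677 genes and the lower for 104 (0.891%), at a median of -0.003, and the cells were divided by a count of the same libraries, so the test describes what goes along with Pi16. The count of 138 became 445 (180 higher and 265 lower) with the library as a replicate block, and 307 and 519 without the positive sums of library 1 and library 2 and 220 and 230 without the negative sums. Without the 31 cells of subclusters 6 and 7 it was 306.

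Higher in Pi16-positive cells were Mfap5 (1236 and 1340 CPM against 424 and 441 CPM, log2 difference 1.59 ± 0.15 SE, adjusted p = 0.00028), Ccl19 (1243 and 1212 against 404 and 331 CPM), Ccl11 (762 and 700 against 187 and 378 CPM), C3, the central complement protein (175 and 288 against 65.6 and 26.2 CPM), Clec3b, Cd34, the factor Ebf1, Ass1, Lgi4 and Ndufa4l2. The calls of Lgi4 and Ass1 were lost in 5 and 3 of the 14 alternatives, among them leaving out the negative sum of library 1. The groups did not overlap in Mfap5, Ccl19, Ccl11 or C3, which were named among genes called and higher within each library, so this is a description only. Of the chemokine list 3 of 15 were higher, Ccl11, Ccl19 and the alarmin Il33 (1.21, a call lost in thinned cells and with a mitochondrial limit of 10%), and 1 lower, Cxcl14. Of the proteoglycans Epyc was higher, a call lost in 6 of the 14 alternatives, among them leaving out the positive sum of library 1 or either negative sum. Dcn, which the rule used, stood at 26411 and 23955 CPM in positive and 14589.6 and 14644 CPM in negative cells, given as a description, and it is counted among the 34 genes.

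Lower in Pi16-positive cells were 5 of 7 contractile genes, at a median of -1.94 over the list. Acta2 stood at 521 and 760 CPM in positive and 3475 and 2786 CPM in negative cells (log2 difference -2.29 ± 0.20 SE, adjusted p = 0.00015), and Tagln at 651 and 1242 against 4357 and 4044 CPM (-2.16). Tpm1 (-2.02), Tpm2 (-1.78) and Myl9 (-1.28) went with them, and Cnn1 (-1.94) and Lmod1 (-1.35) were called with the replicate block (adjusted p = 4.9e-05 and 0.0070) but not without it. Igfbp2 (272 and 1340 against 5283 and 5188 CPM), Igf2 (26.0 and 56.1 against 381 and 476 CPM), Sfrp1 (107 and 105 against 835 and 715 CPM), Nbl1, Fst, Wnt5a, Crabp1 and Clu were lower as well, and the call of Wnt5a was lost in 4 of the 14 alternatives, among them leaving out the negative sum of library 2. DESeq2 did not call Igfbp2. Col1a1 (2689 and 3708 against 3741 and 3822 CPM, adjusted p = 0.70) was not called, and Lum (0.40) and Sfrp2 (-0.82) were called with the replicate block (adjusted p = 0.0035 and 1.1e-07) but not without it. The genes with the largest falls by rule, Cytl1, Mia, Megf6, Comp, Lama1, Npr3, Chad, Cd52, Gm525 and Cnmd, were at 0 UMIs in positive cells, and several of them lead subcluster 7 or 3, which held no positive cell.

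**Figure D5:**
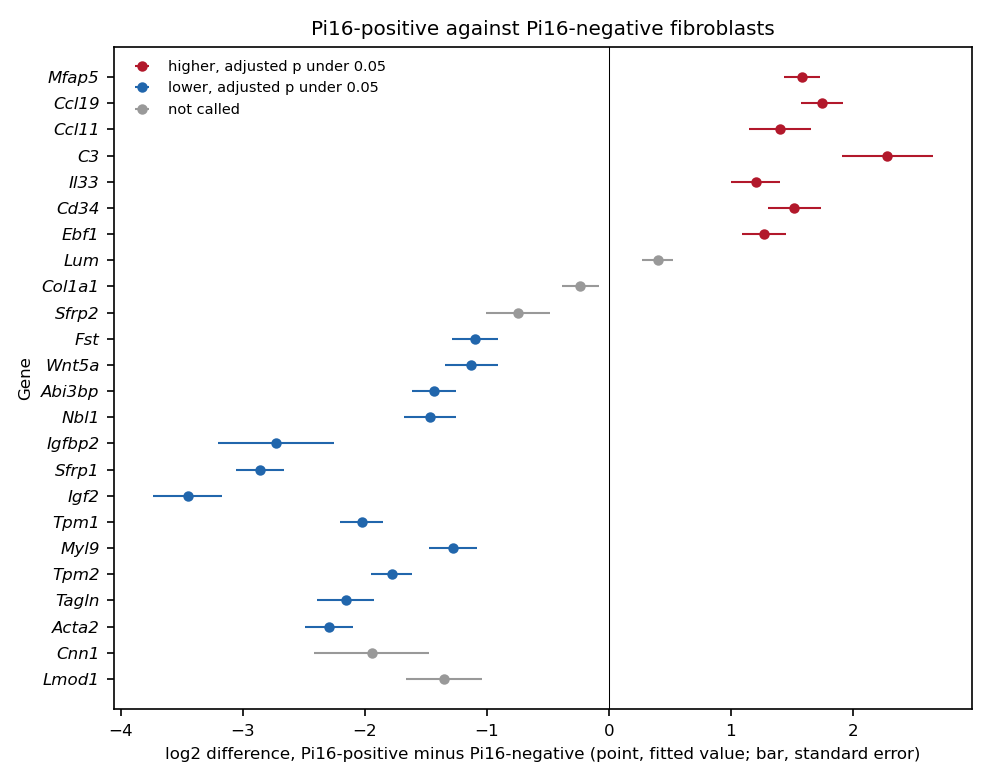
Fitted log2 difference of 24 genes (rows) between Pi16-positive and Pi16-negative fibroblasts, with bars of 1 standard error and colours for the call by edgeR. Mfap5, Ccl19, Ccl11 and C3 lie to the right of 0, Igf2, Sfrp1, Igfbp2 and Acta2 to the left at -3.45 to -2.29, and Lum, Col1a1 and Sfrp2 are grey, as not called without the replicate block.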

How the data were processed

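The authors made 1 droplet library from each of 2 samples and counted UMIs per gene. The submitters' processing notes name bcl2fastq, Cell Ranger 4 with the mm10 genome and Seurat 3.2.3. The deposited matrix of raw UMI counts pools both libraries, and the suffix of each barcode assigns it to a sample. Whether depth was equalised when the libraries were merged was not given in the sources used here. The libraries held 108005626 and 95442231 UMIs in 12814 and 11270 barcodes, over 32285 genes. Cells with 200 to 9000 genes and at most 5% UMIs of the 13 mitochondrial genes were kept. Doublets were called per library with Scrublet at an assumed rate of 8% and kept, and leaving them out was an alternative.

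For each cell group the UMIs of its cells in a library were added up. Genes with 10 or more of these UMIs, gate genes left out (for Pi16, only Pi16), were tested with edgeR 4.0.16 (TMM, quasi-likelihood test) in R 4.3.3, with Benjamini-Hochberg adjustment over all genes tested and a threshold of 0.05. A gene is called when its adjusted p is under that threshold. DESeq2 1.42.0 was an alternative. The edgeR fit was also run on simulated sums with set changes. These sums held no gating and no pairing by library, so they do not test the calls given here. Equal replicate numbers mark cells of 1 library, which pairs the sums, and across genes their deviations correlated at 0.0325, 0.0773, 0.152 and 0.0195 in the mural, endothelial, all-other and Pi16 comparisons. The library as a block was an alternative in each.

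Subclusters came from scanpy 1.11.5 (2000 variable genes, 15 components, Leiden resolution 0.5). Genes were named by rule as the 10 furthest apart in each direction per comparison and as the list members highest in fibroblasts. Others were named after their values were seen. The members and lists were chosen with earlier results of these data known. Fold bounds against a group at 0 UMIs use 3 counts over the group, and intervals cover counting error only. Other alternatives were leaving out each sum, no filter on low counts, edgeR's own filter, a mitochondrial limit of 10%, cells thinned to 4484 UMIs, stricter limits on Dcn (10) and Col1a2 (6), members without UMIs of 7 genes of other cell types and, chosen after seeing the data, members outside 2 subclusters. Promoters are those of RefSeq. Some genes are not reported here.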

Additional observations from a re-analysis of the deposited data

How the results depend on the processing

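The counts of genes called against endothelial cells (4809) and against all other cells (7555) stayed within 1.5 times under each alternative, except that DESeq2 called 2981 against endothelial cells. Without 1 sum at a time they ranged from 3565 to 4341 and from 6436 to 7051. The count against mural cells (382) became 595 with the replicate block, 891 without a filter, 3560 with a mitochondrial limit of 10%, 831 without cells holding UMIs of 7 other-type genes, 657 with stricter Dcn and Col1a2 limits, 705 without 2 subclusters and 81 to 602 without 1 sum. The count for Pi16 (138) became 445 with the block, 460 without a filter, 277 at 10%, 248 without cells holding those 7 genes, 306 without 2 subclusters and 220 to 519 without 1 sum. The number of fibroblasts, 405, became 641 at 10%. The causes of these shifts were not tested.

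The block turned no called gene of the text into one not called, apart from Tnc against all other cells, and it brought calls to Acta2 against mural cells, Hes1 against all other cells and Cnn1, Lmod1, Lum and Sfrp2 in the Pi16 comparison. The uncalled difference of Tagln from mural cells (0.07) reversed to -0.0034 with DESeq2, -0.052 with edgeR's filter, -0.18 at 10%, -0.19 in thinned cells and -0.027 without the fibroblast sum of library 1, and without 1 mural sum it ran from -0.21 to 0.39. That of Cxcl12 from endothelial cells (-0.02) ran from -0.12 to 0.088 without 1 sum at a time and became 0.22 without cells holding UMIs of the 7 genes, 0.043 with stricter limits and 0.17 without 2 subclusters, and that of Ebf1 from all other cells became 0.049 in thinned cells. Among 25, 45, 86 and 41 genes in the mural, endothelial, all-other and Pi16 comparisons, each under 14 alternatives, 21, 18, 9 and 31 values lost their call. The mural comparison rests on the 27 cells of the mural gate.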
